A study of Mus musculus with 6 samples.

Results

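The genes examined here encode subunits of ATP-dependent chromatin remodelling complexes and of the Polycomb repressive complexes, in tissue of the forming mouse lens. They were chosen by name: 39 genes whose platform symbol is on a set list, kept in 5 groups, with 17 genes of the BAF complexes, 4 of the ISWI complexes, 5 of the CHD family, 5 of Polycomb repressive complex PRC2 and 8 of PRC1. Probes were named here for 37 of them, and 34 had a probe that passed the detection filter. Over the whole series 10967 genes passed that filter, out of 19057 with a named probe, or 57.5%. Baz1a and Chd7 were not analysed here. The wild type group was lens placode, the thickened surface ectoderm that forms the lens, and the other group was surface ectoderm labelled Pax6-/-, lacking the transcription factor Pax6. Both came from embryos at embryonic day 9.5 on a mixed background of FVB and 129, by laser microdissection of 10 µm frozen sections. For each genotype, RNA of 3 embryos was pooled and then amplified in 3 samples, and each sample was hybridised to 1 Illumina bead array, so that the p-values measure the spread between these samples, which may be technical. The label of the tissue changes together with the genotype, and the kind of Pax6 allele is not stated. The design sets out to find genes that Pax6 regulates in the placode.

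Chromatin remodellers use ATP to slide, evict or space nucleosomes and so open or close DNA to transcription factors. BAF complexes are assembled around 1 ATPase with a set of interchangeable subunits, ISWI complexes space nucleosomes, and CHD proteins act alone or, as Chd3 and Chd4 do, within the NuRD complex, which also deacetylates histones. Polycomb complexes silence developmental genes: PRC2 methylates histone H3, and PRC1 ubiquitinates histone H2A and compacts chromatin. In the mouse lens, the BAF ATPase Smarca4 and the ISWI ATPase Smarca5 are known for roles in the maturation of lens fibre cells.

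Most members with a promoter window had one rich in CpG dinucleotides, as did most tested genes. RefSeq promoter windows on build GRCm38.p6 were matched by symbol for 32 of the 39 members, and the 250 bases before the transcription start were read, 1 window per gene. The 32 include Dpf1, Cbx7 and Cbx8, which did not pass the detection filter. The ratio of observed to predicted CpG dinucleotides was above 0.6 in 29 of these windows, or 90.6%, against 68.5% of the 8881 windows of tested genes and 34.5% of all 27025 windows. The median ratio was 0.86 for the members, 0.74 for tested genes and 0.38 for all. The exceptions were Smarcd2 at 0.20, Smarca1 at 0.33 and Phc2 at 0.57. The GC box GGGCGG, a sequence bound by Sp and Klf factors, was found on either strand in 24 member windows, or 75%, against 59.6% of the windows of tested genes. The box CCAAT was found on either strand in 37.5% of member windows and 36.9% of those of tested genes, and the homeodomain core TAATTA in 1 member window, that of Actl6a, or 3.12%, against 2.31%. Printed here are the windows of Smarcc1 and Smarcc2, paralogs whose values separated in opposite directions, and of Smarca1, the member with the largest difference. CpG dinucleotides are in capitals, and there are 21, 40 and 6 of them in these 3 windows. The windows lie at chr9:110131774-110132023 on the plus strand, chr10:128458986-128459235 on the plus strand and chrX:47892614-47892863 on the minus strand.
Smarcc1: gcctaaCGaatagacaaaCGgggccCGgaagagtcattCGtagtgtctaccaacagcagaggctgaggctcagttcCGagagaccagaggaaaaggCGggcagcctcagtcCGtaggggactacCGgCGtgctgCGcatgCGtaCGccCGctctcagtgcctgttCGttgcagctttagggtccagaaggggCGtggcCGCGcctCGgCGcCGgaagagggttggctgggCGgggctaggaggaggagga
Smarcc2: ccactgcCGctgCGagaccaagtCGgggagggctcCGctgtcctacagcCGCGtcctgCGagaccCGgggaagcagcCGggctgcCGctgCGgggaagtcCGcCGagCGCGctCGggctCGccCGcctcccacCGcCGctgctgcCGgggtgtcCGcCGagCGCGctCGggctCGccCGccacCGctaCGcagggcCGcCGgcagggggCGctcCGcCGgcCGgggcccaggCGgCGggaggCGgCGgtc
Smarca1: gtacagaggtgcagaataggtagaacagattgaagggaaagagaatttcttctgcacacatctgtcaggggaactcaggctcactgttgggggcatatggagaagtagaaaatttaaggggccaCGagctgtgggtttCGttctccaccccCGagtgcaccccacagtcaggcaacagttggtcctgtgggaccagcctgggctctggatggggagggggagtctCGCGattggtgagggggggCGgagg

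Of the 45281 probes, 21062 to 22712 were detected on 5 arrays and 17276 on Pax6-/- replicate 2, the array with the lowest mean signal. That array also stood apart for Xist, the transcript of the inactive X chromosome, which read 11.68 on the log2 scale there and 4.63 to 4.90 on the other 5, although the labels describe the 3 samples of a genotype as amplified from 1 pool. Pax6, the targeted gene, read 11.10, 11.07 and 11.17 in wild type and 10.26, 10.79 and 10.31 in Pax6-/-, and the place of this probe relative to the mutation is not known. Its difference did not pass (limma adjusted p = 0.528). The number of arrays limits the precision. Among marker lists, 8 of 10 lens placode genes were tested, with Foxe3 and Cryaa below the filter, and all 8 had negative differences. Their summed linear signal was 5182 to 6194 in wild type and 2744 to 3276 in Pax6-/-. Pax6, the targeted gene, is among these 8. With mean log2 signals of 11.11 and 10.46 it made up a large part of both sums. All 9 surface ectoderm markers were tested, with sums of 5942 to 6981 and 6420 to 8334. For the neighbouring optic vesicle (4 of 7 tested, Six6 and Vax2 below the filter) the sums were 437 to 474 and 445 to 1362, for periocular mesenchyme (7 of 8, Sox10 below) 1773 to 1913 and 1105 to 1409, for endothelium (5 of 7, Pecam1 and Kdr below) 289 to 410 and 159 to 279, and for erythroid genes (5 of 6) 5689 to 13556 and 2899 to 14313. Such sums are led by bright genes. Of the mesenchyme genes 3 had positive and 4 negative differences, with a median of -0.01. Among them Pdgfra had means of 10.08 in wild type and 8.18 in Pax6-/-, while Col1a2 was higher on every Pax6-/- array. Of the optic vesicle genes 2 were positive and 2 negative, and Pax2 read 9.92 on Pax6-/- replicate 2. The part of the listed cell types in the values of the members was not tested. In such tissue samples, fewer cells of a type and less RNA per cell cannot be told apart.

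None of the 34 tested members passed the test between genotypes. Limma gave the smallest adjusted p among them as 0.455, for Smarcc2, and 3 members, Smarcc2, Smarca1 and Chd1, had an unadjusted p under 0.05. Over all 21971 probes 2 were called, or 0.00910%, and over all 10967 genes 1, or 0.00912%. Of all genes 9.09% had an unadjusted p under 0.05. On 7 members, or 20.6%, the 3 arrays of one genotype all lay above the 3 of the other, a share near the 17.5% found over all genes. Of these 7, Smarcc1, Chd1 and Chd4 lay higher in Pax6-/-, where 7.21% of all genes did so, and Smarcc2, Smarca1, Smarca5 and Eed lay lower, where 10.3% did so. Without Pax6-/- replicate 2, where 3 arrays face 2, none passed either (smallest adjusted p = 0.45), and 13 members did not overlap, where 28.5% of all genes did not. Differences in log2 signal are Pax6-/- less wild type throughout, so that a positive value means a higher signal in Pax6-/-.

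**Figure D1:**
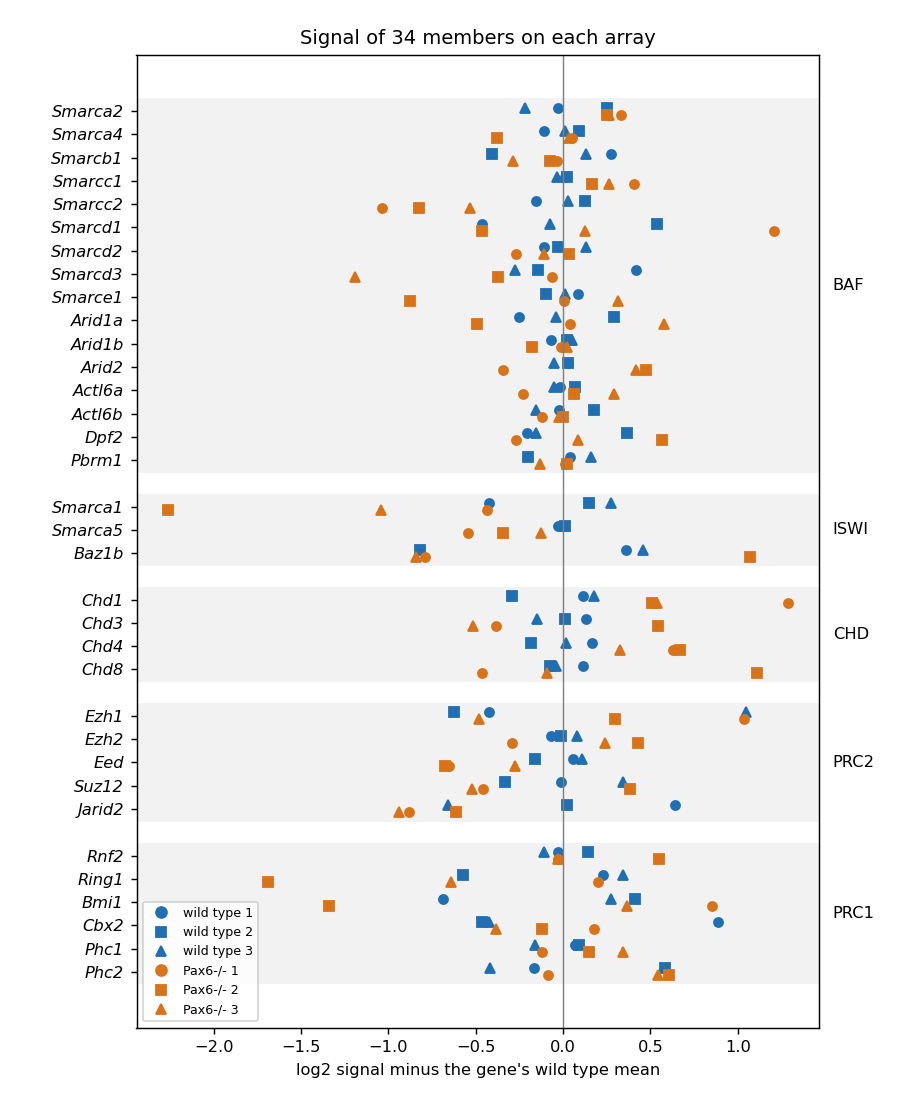
Log2 signal of the 34 tested members on each array, relative to the gene's own wild type mean (horizontal axis, log2 units), with 1 row per gene in 5 groups. Blue symbols are the 3 wild type arrays and orange symbols the 3 Pax6-/- arrays. Orange symbols lie to 1 side of all blue ones for 7 genes.

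On the brightest probe of each gene, the differences of the members were mostly small. In 19 of the 34 the difference lay within 0.2 of 0, 15 differences were positive and 19 negative, and their median was -0.04, beside -0.07 over all genes. With the arrays scaled to equal medians, which moved the median of all genes to -0.20, 10 were positive and 24 negative. Set against the median of all genes, 19 members lay above and 15 below it as reported, and 15 above and 19 below it with that scaling. The median size of a difference, sign aside, was 0.18 for the members and 0.35 for all genes. The members were also brighter, with a median log2 signal of 8.71 against 7.26, and 88.2% of them were detected on all 6 arrays against 70.2% of genes. Among genes detected on all 6 arrays the median size was 0.32, and among members so detected it was 0.18. One member, Smarca1, differed by more than 1, as 10.5% of all genes did. The median standard error of a difference was 0.31 for the members and 0.37 for all genes. In both sets the median size was below the median standard error.

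**Figure D2:**
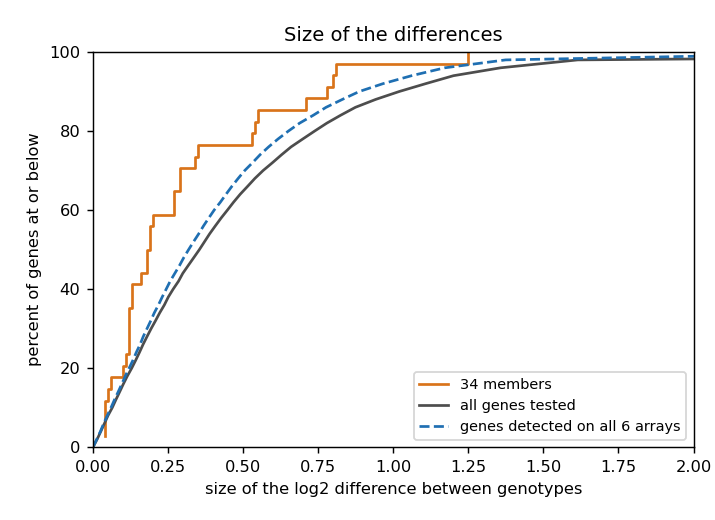
Cumulative share of genes (vertical axis, percent) by the size of their log2 difference between genotypes (horizontal axis, sign aside) for the 34 members (orange steps), all 10967 tested genes (grey line) and genes detected on all 6 arrays (blue dashes). The curve of the members lies to the left, with a median of 0.18 against 0.35 and 0.32.

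Of the 17 BAF genes 16 were tested, 7 with positive and 9 with negative differences (5 and 11 with median scaling), and their median was -0.04. Smarcc1 and Smarcc2, the scaffold paralogs around which the complex is built, were the only tested BAF genes without overlap between genotypes. Of the group, Smarcc2 had the smallest p. Smarcc2 read 7.51, 7.79 and 7.69 on the wild type arrays and 6.63, 6.84 and 7.13 on the Pax6-/- arrays. All 3 Pax6-/- arrays were below every wild type array, by a difference of -0.80 (SE 0.26, 95% interval -1.42 to -0.17), or 1.74-fold, which did not pass the test (limma adjusted p = 0.455). Within slide 1, where wild type had only 1 array, the difference was -0.78. Within slide 2, where Pax6-/- had only 1 array, it was -0.61. For a gene without overlap, such as this one, the sign within each slide is fixed beforehand. The within-slide values therefore add no independent support for its direction. The Smarcc2 difference lay between -0.93 and -0.68 when any 1 array was left out.

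Smarcc1 went the other way. On its brighter probe it read 10.05, 10.06 and 10.00 in wild type and 10.44, 10.20 and 10.30 in Pax6-/-, and on its other probe 8.56, 7.87 and 8.32 against 9.16, 9.05 and 8.89. The groups did not overlap on either probe, with differences of 0.27 (SE 0.24, adjusted p = 0.729) and 0.79 (SE 0.28, adjusted p = 0.488). With median scaling the brighter probe was at 0.07 and its groups overlapped, while Smarcc2 was at -0.93. The signal of Smarcc1 over that of Smarcc2 was also taken within each array. Centred on its mean, this log2 ratio was -0.37, -0.64 and -0.59 in wild type and 0.90, 0.45 and 0.25 in Pax6-/-, a difference of 1.07, or 2.1-fold (exact permutation test, two-sided p = 0.10, the smallest that 3 against 3 allows). It was 1.01 with median scaling and 0.89 to 1.21 when any 1 array was left out. Since Smarcc1 was higher and Smarcc2 lower on every Pax6-/- array, their ratio had to separate, with the smallest possible p. It therefore adds no independent support. The same ratio was taken for 8 pairs of alternative subunits across the complexes, and 2 of them did not overlap between genotypes. No such share was taken over other pairs of genes. After Benjamini-Hochberg adjustment the smallest p was 0.40.

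The other pair without overlap was that of the ATPases Smarca2 and Smarca4, with a difference of 0.37 in the log2 ratio of Smarca2 to Smarca4. The nearest arrays of the genotypes were at -0.03 and 0.03, the highest, Pax6-/- replicate 2, was at 0.44, and without that array the difference was 0.24. Smarca4 read 9.46, 9.66 and 9.58 in wild type and 9.62, 9.19 and 9.60 in Pax6-/-, and the groups overlapped. Its difference was -0.10 (SE 0.26, 95% interval -0.71 to 0.52). Smarca2 read 10.67, 10.95 and 10.48 against 11.03, 10.95 and 10.96, where wild type replicate 2 reached the Pax6-/- values. Its difference was 0.27 (SE 0.25, 95% interval -0.33 to 0.88). All 5 kept Smarca2 probes had positive differences, from 0.17 to 1.48. The second brightest, at 6.68, 5.46 and 5.63 against 7.60, 7.71 and 6.90, was the 1 Smarca2 probe without overlap (difference 1.48, SE 0.42, adjusted p = 0.393).

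Among the interchangeable Smarcd subunits, which link the complex to transcription factors, Smarcd3 had the smallest p. Smarcd3 read 7.52, 6.96 and 6.83 in wild type and 7.04, 6.73 and 5.91 in Pax6-/-, a difference of -0.55 (SE 0.38, adjusted p = 0.670). The groups overlapped, since Pax6-/- replicate 1 lay above 2 wild type arrays. Without Pax6-/- replicate 3 the difference was -0.22, and without Pax6-/- replicate 1 it was -0.78. Smarcd2 was at -0.12 (SE 0.25). Smarcd1 was at 0.29 (SE 0.49), with 7.90 on Pax6-/- replicate 1 and 6.23 to 7.23 elsewhere. Without that array its difference was -0.17, and its other 2 probes were at -0.28 and -0.16.

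Subunits that tell the forms of the complex apart were read next. On its brightest probe Arid1b, of canonical BAF, read 10.01, 10.10 and 10.13 in wild type and 10.07, 9.90 and 10.10 in Pax6-/- (difference -0.06, 95% interval -0.62 to 0.51). Its dimmer kept probes differed by 0.93 (SE 0.96), 0.01 (SE 0.29) and -0.60 (SE 0.40), all with overlap. Its paralog Arid1a was dim, at 4.90 to 5.97 on all arrays, not detected on Pax6-/- replicate 2, and differed by 0.04 (SE 0.35). Of the subunits of the PBAF form, Pbrm1 differed by -0.04 (95% interval -0.62 to 0.55) and Arid2 by 0.18 (95% interval -0.54 to 0.91), or 0.03 without Pax6-/- replicate 2 and 0.45 without Pax6-/- replicate 1. The actin-like subunits are Actl6a, found in dividing progenitors, and Actl6b, known from neurons. On their brightest probes both were detected on all 6 arrays, and they differed by 0.04 (SE 0.26) and -0.05 (SE 0.24). On that probe Actl6b read 8.54, 8.74 and 8.41 in wild type and 8.44, 8.56 and 8.54 in Pax6-/-. Its other probes read 4.53 to 5.22, and none of them passed the filter. Of these, 1 was detected on 1 wild type array and the rest on no array. Dpf2, a histone-binding subunit, differed by 0.13 (SE 0.33). Its neuronal paralog Dpf1 was not detected on any array by either of its 2 probes. The core subunits Smarcb1 and Smarce1 were at -0.13 (SE 0.29) and -0.19 (SE 0.36), and Smarce1 was at 0.15 without Pax6-/- replicate 2, where it read 9.90 against 10.68 to 11.09 on the other arrays.

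**Figure D3:**
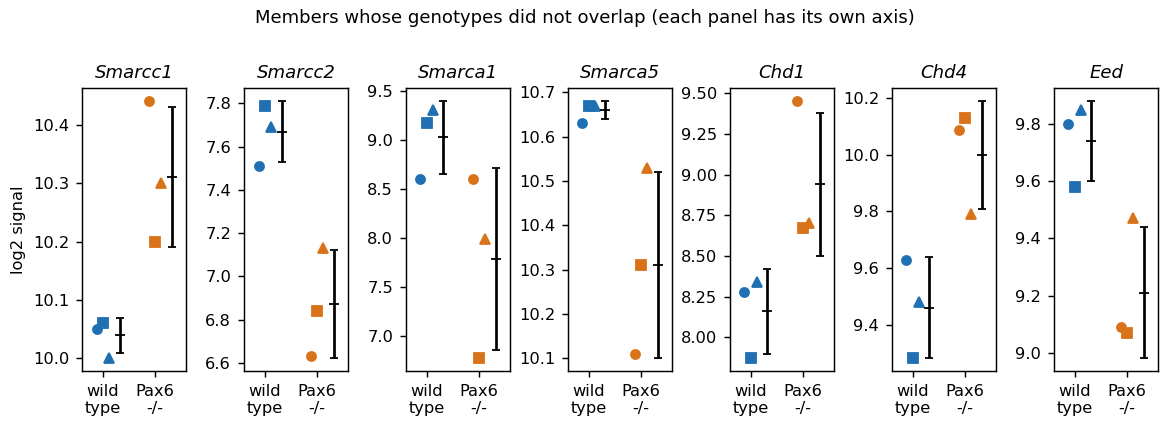
Log2 signal (vertical axes, a separate range in each panel) of the 7 members whose genotypes did not overlap. Symbols are single arrays (circle, square and triangle for replicates 1, 2 and 3), and bars are the mean and SD of 3 arrays. Smarca1 was separated by 8.61 against 8.60 only.

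Of the 4 ISWI genes 3 were tested, and all 3 had negative differences, with a median of -0.34. Smarca1, an ISWI ATPase encoded on the X chromosome, had the largest difference of any member. It read 8.61, 9.18 and 9.31 in wild type and 8.60, 6.77 and 7.99 in Pax6-/-. The lowest wild type and the highest Pax6-/- array were nearly equal, and the lowest value was on Pax6-/- replicate 2. The difference was -1.25 (SE 0.50, 95% interval -2.42 to -0.07), or 2.37-fold, and missed the threshold with an adjusted p of 0.527. Leaving out Pax6-/- replicate 2, the array that was dim and high in Xist, gave -0.74, and leaving out Pax6-/- replicate 1 gave -1.65. The part of Xist in this value was not tested. A second Smarca1 probe, at 5.47, 6.59 and 7.34 against 5.20, 4.55 and 5.89, gave the same difference of -1.25 (SE 0.55), with overlap.

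Smarca5, the other ISWI ATPase, read 10.63, 10.67 and 10.67 in wild type and 10.11, 10.31 and 10.53 in Pax6-/-. Its wild type values lay close together, and every Pax6-/- array was below them. The difference was -0.34 (SE 0.25, 95% interval -0.94 to 0.25, adjusted p = 0.675), with -0.42 within slide 1 and -0.15 within slide 2. Baz1b, a partner of Smarca5, was detected on 2 wild type arrays and 1 Pax6-/- array and gave 5.70, 4.52 and 5.80 against 4.55, 6.41 and 4.50. Its difference of -0.19 (SE 0.61) turned to 0.14 without Pax6-/- replicate 3.

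The CHD family had the highest median of the 5 groups, 0.36, with 3 of its 4 tested genes at positive differences. Chd1, a remodeller that binds histone marks of active genes, read 8.28, 7.87 and 8.34 in wild type and 9.45, 8.67 and 8.70 in Pax6-/-. The groups did not overlap, and the difference was 0.78 (SE 0.32, 95% interval 0.02 to 1.54), or 1.71-fold (adjusted p = 0.533). Its second probe followed at 0.70 (SE 0.29), without overlap, while the other two were at 0.08 (SE 0.37) and 0.10 (SE 0.32) with overlap. Median scaling made the groups of the brightest probe overlap, with a difference of 0.61.

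Chd4, the main ATPase of NuRD, read 9.63, 9.28 and 9.48 in wild type and 10.09, 10.13 and 9.79 in Pax6-/-, a difference of 0.54 (SE 0.26, 95% interval -0.07 to 1.15, adjusted p = 0.578). A second probe agreed in sign, at 0.56 (SE 0.31). The dimmest kept probe went the opposite way without overlap, from 7.39, 7.60 and 7.32 to 7.04, 5.69 and 6.32, a difference of -1.09 (SE 0.38, adjusted p = 0.481). The mean of the 3 kept Chd4 probes differed by 0.00, so the direction of Chd4 depends on the probe. Its NuRD paralog Chd3 was at -0.12 (SE 0.35). Chd8, a regulator of Wnt target genes, was at 0.18 (SE 0.43), with 9.74 on Pax6-/- replicate 2 and 8.17 to 8.75 on the other arrays, and at -0.28 without that array. The median of the CHD group was 0.10 without Pax6-/- replicate 2 and 0.09 with the kept probes of each gene averaged.

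**Figure D4:**
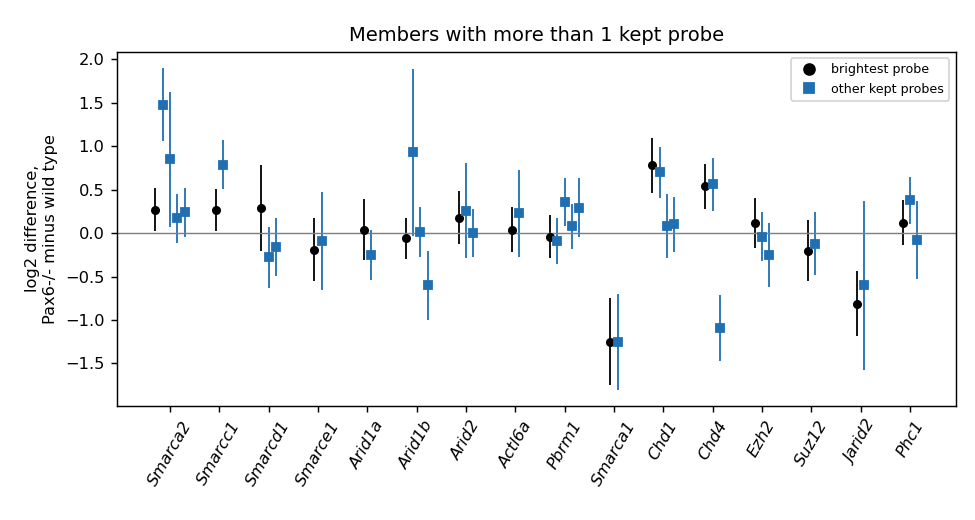
Log2 difference (Pax6-/- minus wild type, vertical axis) of every kept probe of the 16 members with more than 1, with bars of 1 standard error. Black circles are the brightest probe of each gene and blue squares the others. Both Smarca1 probes lie at -1.25, and the Chd4 probes lie on both sides of 0.

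All 5 PRC2 genes were tested, 2 with positive and 3 with negative differences (1 and 4 with median scaling) and a median of -0.20. Eed, the subunit that binds the methyl mark PRC2 lays down, read 9.80, 9.58 and 9.85 in wild type and 9.09, 9.07 and 9.47 in Pax6-/-. The groups did not overlap, and the difference was -0.53 (SE 0.26, 95% interval -1.15 to 0.08), or 1.45-fold (adjusted p = 0.581). It was -0.72 within slide 1 and -0.24 within slide 2. Jarid2, an accessory subunit that helps to recruit the complex, read 7.44, 6.82 and 6.14 against 5.92, 6.19 and 5.86, with wild type replicate 3 among the Pax6-/- values. Its difference was -0.81 (SE 0.37, adjusted p = 0.570) and -0.49 without wild type replicate 1. Another background correction (normexp with an offset of 50) gave -0.30. The brightest probe was picked anew in that setting, so -0.30 may belong to another Jarid2 probe. A second Jarid2 probe was at -0.60 (SE 0.97), with 8.27 on Pax6-/- replicate 3 and 4.57 on replicate 2.

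The genotypes overlapped for both catalytic subunits and for the scaffold of PRC2. Ezh2, the methyltransferase of dividing cells, read 9.87, 9.93 and 10.02 in wild type and 9.65, 10.37 and 10.18 in Pax6-/-, so that its wild type values lay inside the Pax6-/- range. Its difference was 0.12 (SE 0.29, 95% interval -0.55 to 0.80), with 2 further probes at -0.04 and -0.25. Ezh1, the other methyltransferase, was detected on 2 arrays of each genotype and differed by 0.29 (SE 0.57). Suz12, the scaffold, read 10.40, 10.08 and 10.75 against 9.95, 10.79 and 9.89, a difference of -0.20 (SE 0.35) that was -0.49 without Pax6-/- replicate 2 and -0.03 without wild type replicate 3.

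Of the 8 PRC1 genes 6 were tested, 3 with positive and 3 with negative differences, a median of 0.04, and overlap in all 6. Median scaling gave 1 positive and 5 negative, with a median of -0.14. The ubiquitin ligase Rnf2 read 10.08, 10.25 and 10.00 in wild type and 10.08, 10.66 and 10.08 in Pax6-/- (difference 0.16, 95% interval -0.50 to 0.83). Its paralog Ring1 read 6.84, 6.04 and 6.95 against 6.81, 4.92 and 5.97, a difference of -0.71 (SE 0.52, adjusted p = 0.682). Ring1 was not detected on Pax6-/- replicate 2, and without that array it was at -0.22. Bmi1, the partner that stimulates the ligase, varied most of the group, with 6.30, 7.40 and 7.26 against 7.84, 5.65 and 7.35. Its difference was -0.04 (SE 0.61), and leaving out 1 array gave -0.49 to 0.61. The polyhomeotic subunits Phc1 and Phc2, which polymerise and cluster the complex, were at 0.12 (SE 0.26) and 0.35 (SE 0.37).

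The Cbx proteins bind methylated histone H3 and direct canonical PRC1 to its targets. Cbx2 read 7.60, 6.25 and 6.29 in wild type and 6.89, 6.59 and 6.33 in Pax6-/-, a difference of -0.11 (SE 0.43). Cbx7 was detected on 2 wild type arrays and no Pax6-/- array, and Cbx8 on 1 wild type array and no Pax6-/- array. Neither passed the filter, and their log2 signals of 4.59 to 5.27 and 4.49 to 5.40 were close to the lowest detected signal of the arrays, 4.79 to 5.39, so no fold is given.

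**Figure D5:**
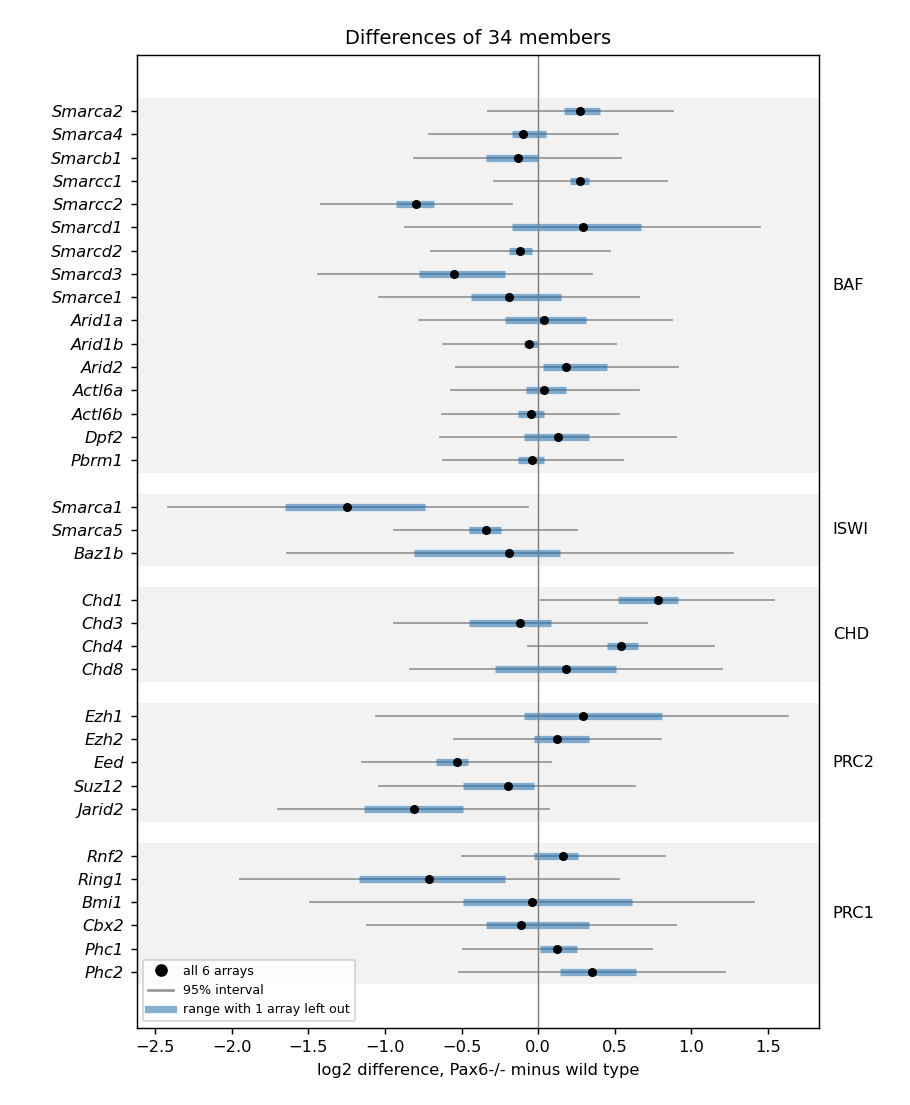
Log2 difference (Pax6-/- minus wild type, horizontal axis) of the 34 members in 5 groups. Black points use all 6 arrays, grey lines are 95% intervals from limma, and blue bars span the differences with 1 array left out in turn. The intervals of Smarcc2, Smarca1 and Chd1 lie to 1 side of 0, and none of these passed after adjustment over all probes.

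Further subunits and partners of the same complexes were read from lists set by name, and none of their tested genes passed. Of 13 BAF partners tested, 5 had positive and 8 negative differences, with a median of -0.14. Brd7, a bromodomain subunit of PBAF, read 8.72, 8.56 and 8.56 in wild type and 7.56, 7.13 and 8.04 in Pax6-/- (difference -1.04, SE 0.31, adjusted p = 0.414). Bcl7c was at -1.46 (SE 0.46, adjusted p = 0.439). Both were lower on every Pax6-/- array than on any wild type array. Differences of that size were also found in the other direction, up to 1.49: Bcl11a, a transcription factor that joins BAF complexes, was at 1.36 (SE 0.49, adjusted p = 0.488) and higher on every Pax6-/- array. Of 9 ISWI partners, 8 had positive differences and the median was 0.29. Relative to each gene's mean over arrays, their median was -0.09, -0.43 and -0.11 in wild type and -0.14, 0.56 and 0.13 in Pax6-/-. The list as a whole thus overlapped between genotypes and was highest on Pax6-/- replicate 2. Bptf, the largest subunit of the NURF complex, was at 1.04 (SE 0.36, adjusted p = 0.480) and Baz2b at 1.01 (SE 0.39), each higher on every Pax6-/- array. Bptf read 7.90 on Pax6-/- replicate 2, 6.84 and 7.04 on the other Pax6-/- arrays and 5.97 to 6.52 in wild type.

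Of 7 NuRD partners tested, 4 had positive differences, with a median of 0.36, and the scaffold subunits Mta3 (0.79, SE 0.32, adjusted p = 0.529) and Mta1 (0.63, SE 0.30) had the smallest p. Of 11 other CHD and SNF2 remodellers, 4 had positive and 7 negative differences, with a median of -0.39. The 2 genes of this list with the smallest p were both among the 4 positive ones. Chd2, a close relative of Chd1, was at 0.84 (SE 0.31, adjusted p = 0.498), without overlap, and Chd6 at 1.14 (SE 0.66), or 0.45 without Pax6-/- replicate 2. Of 4 PRC2 partners 3 had positive differences, among them Phf1 at 0.66 (SE 0.66), which was at -0.11 without Pax6-/- replicate 2, and Aebp2 was at -0.29 (SE 0.33), or -0.04 without the same array. Of 14 PRC1 partners 5 had positive and 9 negative differences, with a median of -0.13. Bcor, a corepressor of a variant PRC1, was at -0.60 (SE 0.26, adjusted p = 0.545) and Pcgf2, a paralog of Bmi1, at 0.86 (SE 0.38, adjusted p = 0.567), and neither overlapped between genotypes.

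Genes known as Polycomb targets mostly failed the detection filter. Of 41 listed genes, the Hox clusters with Cdkn2a and Cdkn2b, 40 had a probe and 3 passed the detection filter, or 7.5%, where 57.5% of all genes did. The 3 were Hoxa7, Hoxa9 and Hoxc10. On its brightest probe Hoxa9 read 7.90, 6.85 and 6.18 in wild type and 5.52, 4.66 and 4.53 in Pax6-/-, where it was detected on 1 array. It passed the filter through its wild type arrays alone, so no test is given. With values below the lowest detected signal of their array raised to it, the mean of Hoxa9 was at least 3.29-fold lower in Pax6-/-. This bound is on the means of 3 arrays and carries no error. Before that raising the difference was -2.07, or -1.61 without wild type replicate 1. Hoxa7 was dim, at 4.71 to 4.93 in wild type and 5.01 to 5.93 in Pax6-/-. It was detected on 2 wild type arrays and on all 3 Pax6-/- arrays, and would not have passed the filter on wild type arrays alone. By the same measure its mean was at least 1.56-fold higher in Pax6-/-, again without an error. Before the raising the difference was 0.68, or 0.47 without Pax6-/- replicate 1 and 0.19 within slide 2. Hoxc10, at 5.09 to 6.32 on all arrays, differed by 0.39 (SE 0.35), or 0.09 without Pax6-/- replicate 2.

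The bead standard errors give only the part of the error on an array that comes from the spread between beads. Each member signal was an average over 18 to 74 beads, and its bead standard error was 1.74% to 7.28% of the signal, with a median of 3.43%. The median SD between arrays of a genotype was 0.34 on the log2 scale, or 26.8% of the signal. The bead error is relative to the raw signal, background included, and the SD is of background-corrected values, so they are not on the same footing. For Smarcc2 the bead standard errors were 3.22% to 5.39% of raw signals of 113 to 288. Probes of a gene differed in sign about as often among members as elsewhere: of 16 members with more than 1 kept probe, 8 had probes on both sides of 0, or 50%, against 51.3% of 4586 such genes.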

How the data were processed

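RNA was measured on 6 Illumina arrays, 3 per genotype, grouped by the sample titles, with slides taken from the chip names in the descriptions. The genotypes were not balanced over the slides, so each difference within a slide rests on only 1 array of one genotype. Per the file headers, the deposited probe table gave an average signal intensity on a linear scale and a detection p-value for each probe and array, beside other values, the bead number and bead standard error. The authors' processed intensity values were deposited separately. The submitters' processing notes name GenomeStudio, and how the processed values were made is not stated there. Signals were corrected with limma's neqc (limma 3.58.1, R 4.3.3), in which negative controls are inferred from detection p-values, then offset by 16, quantile normalized and set on the log2 scale. Probes detected (p under 0.05) on at least 3 of 6 arrays were kept, 21971 of 45281. All of them were fitted with lmFit and eBayes (genotype as the only term), with Benjamini-Hochberg adjustment at 0.05. The offset compresses differences of dim probes. Intervals are 95% intervals from limma's moderated standard errors.

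Names came from the platform annotation: 34885 probes had 1 symbol, 18 several and 10378 none listed. For each gene the brightest kept probe, by its mean over arrays, stands for it. Genes named are Pax6, members without overlap, the 3 members of each group with the smallest p, alternative subunits, members below the filter, and 2 genes of each further list. Xist and Bcl11a were named after their values were seen. Windows and motifs were read on RefSeq promoters after the values were seen. Members and lists were chosen with earlier results of these data known. The fit was tested on simulated data. Equal replicate numbers did not pair the arrays. Figures used matplotlib 3.10.9 in Python 3.11.15.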

Additional observations from a re-analysis of the deposited data

How the results depend on the processing

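No member passed the threshold under any of 18 other settings (smallest adjusted p = 0.333), among them no background correction, an offset of 50, median scaling, the authors' values and array weights. The probes called over the whole table, 2 as reported, were 6 without the detection filter, 0 among probes detected on all 6 arrays, 0 with the slide as a block, 17 with array weights, 4 with a trended and robust prior, 21 with each gene's probes averaged, and 0 to 2 with 1 array left out. Replicate numbers did not pair the arrays, since deviations of equal numbers correlated at 0.056, 0.045 and 0.019. The replicate block called 0 probes, and no member passed under it (smallest adjusted p = 0.572).

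Median scaling, which moved the median of all genes from -0.07 to -0.20, moved the group medians to -0.21 for BAF, -0.53 for ISWI and -0.14 for PRC1, and turned Actl6a (-0.14), Dpf2 (-0.02), Ezh2 (-0.06), Rnf2 (-0.02) and Phc1 (-0.05). Relative to the median of all genes these 5 stayed positive, at 0.06, 0.18, 0.15, 0.19 and 0.15. Of the 7 members without overlap, 4 remained so under it (not Smarcc1, Smarca1 and Chd1) and Pbrm1 was added, where 18.1% of all genes did not overlap. Averaging probes kept 5 (not Chd1 and Chd4), where 16.8% of all genes did not overlap. PRC1 was at -0.07 without the filter, where Cbx7 and Cbx8 joined the group, and 0.14 with the slide block. ISWI was at -0.80 among probes detected on all 6 arrays. There Baz1b dropped out, while Smarca1 and Smarca5 stayed at -1.25 and -0.34. Array weights gave 0.01 for BAF, -0.84 for ISWI and -0.50 for PRC2, and turned Smarca4 (0.02), Smarce1 (0.01), Chd8 (-0.12) and Bmi1 (0.47). Bmi1 was also positive under normexp (0.02), no background correction (0.01), an offset of 50 (0.01) and the slide block (0.23). Averaging probes gave 0.09 for CHD and turned Smarcd1 (-0.05), Arid1a (-0.10), Arid1b (0.07), Pbrm1 (0.12) and Ezh2 (-0.06), and the authors' values turned Arid1a (-0.01). In all, 19 of 404 recomputed differences changed sign. The brightest probe of a gene was picked anew under each setting. Other than under median scaling, the cause of these changes of sign was not tested.

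With 1 array left out, and so smaller groups, 7 to 13 of 34 members did not overlap, beside 23.8% to 32.2% of all genes. The lowest count, 7, stood beside 32.2%. The medians were -0.07 to 0.02 for BAF, -0.74 to -0.24 for ISWI, 0.10 to 0.50 for CHD, -0.46 to -0.03 for PRC2 and 0.00 to 0.17 for PRC1. Signs turned in 27 of 204 differences, in 18 members, whose ranges were Smarcb1 -0.34 to 0.00, Arid1a -0.22 to 0.31, Cbx2 -0.34 to 0.33, Actl6b -0.13 to 0.04, Ezh1 -0.09 to 0.81, Bmi1 -0.49 to 0.61, Pbrm1 -0.13 to 0.04, Baz1b -0.81 to 0.14, Smarcd1 -0.17 to 0.67, Chd3 -0.45 to 0.08, Smarca4 -0.17 to 0.05, Smarce1 -0.44 to 0.15, Arid1b -0.09 to 0.00, Dpf2 -0.09 to 0.33, Chd8 -0.28 to 0.51, Ezh2 -0.03 to 0.33, Rnf2 -0.03 to 0.26 and Actl6a -0.08 to 0.18. Without a change of sign, Smarca2 ranged from 0.17 to 0.40, Smarcd2 from -0.19 to -0.04, Phc1 from 0.01 to 0.25 and Phc2 from 0.14 to 0.64. The number of arrays and the signal of dim probes such as Arid1a, Ezh1 and Baz1b over background limit these values.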
